A study of Mus musculus with 4 samples.

Results

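Transcript levels of 7 genes known for their work in astrocytes were followed in cultured mouse neural stem cells. The genes are Glul, Aldoc, Aldh1l1, Gja1, Slc1a2, S100b and Aqp4. They were selected by gene name for their roles in water transport, glutamate uptake, metabolism and gap junctions, and all 7 were found among the 55487 genes of the expression table. The cells were primary cultures from embryonic neocortex, grown in medium with bFGF and EGF, the growth factors that keep such cells dividing. In the control, cells with 2 floxed alleles of Tut1 (Tut1f/f) received empty lipid nanoparticles (LNP). In the Tut1 KO, Tut1f/f cells received LNP carrying mRNA for Cre, the recombinase that cuts out DNA between loxP sites. In the Trp53 KO, p53f/f cells received the Cre particles, and in the double KO, Tut1f/f;p53f/f cells did. All 4 cultures therefore carried floxed alleles and received particles, and the control genotype matched only the Tut1 KO. Each group was 1 library. Its embryo and sex, culture and sequencing library cannot be told apart from its genotype. No test was run, and no value below has a replicate error.

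Astrocytes arise from the same radial glial stem cells that earlier make neurons. They clear glutamate from synapses through the transporters encoded by Slc1a2 and Slc1a3, and convert it to glutamine with glutamine synthetase, encoded by Glul. Connexin 43, the product of Gja1, couples them through gap junctions, and the water channel Aqp4 sits in their endfeet around blood vessels. Aldh1l1 encodes a cytosolic enzyme of folate metabolism, Aldoc the brain form of the glycolytic enzyme aldolase, and S100b a calcium-binding protein. Several of these genes are already used by radial glia, whereas Aqp4 and Slc1a2 mark later stages of astrocyte maturation.

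The cultures carried the transcripts of neural stem cells. All 10 genes of a neural stem cell list reached 10 TPM (a level scaled to transcript length and to the library total) in at least 1 library, with summed levels of 10618 to 12525 TPM, led by Fabp7 (7902 to 9441 TPM). Of 8 mature astrocyte markers, 1 reached 10 TPM, namely Aldh1l1, which is also a member. Slc1a2, S100b and Aqp4, on the same list, are members too, so that list is not independent of them. Of 23 astrocyte markers in a further list, given below, 15 reached 10 TPM. Gfap, the intermediate filament gene of astrocytes, stayed between 0.135 and 0.966 TPM, and Gjb6, which encodes the astrocyte connexin 30, was listed at 0 in 2 libraries and did not pass 0.0483 TPM. Oligodendrocyte lineage genes were present (1659 to 1879 TPM summed, 5 of 10 at 10 TPM or more). Neuronal genes summed to 197 to 267 TPM, with 4 of 10 at 10 TPM. Microglial and endothelial genes summed to at most 0.747 and 1.27 TPM, and 6 of 8 microglial genes were at 0 everywhere. Genes of dividing cells summed to 964 TPM in the Tut1 KO and to 1215 to 1318 TPM in the other libraries. In such bulk RNA, fewer cells of a type and less RNA per cell cannot be told apart. The label of the members as astrocyte genes names their known role, and no cell type was read from it here.

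Trp53 was lower in both libraries labelled as deleted for it, at 39.7 and 41.9 TPM in the Trp53 KO and double KO against 120 and 100 TPM in the other 2. Tut1 went against its label, at 29.8 TPM in the library labelled Tut1 KO, 12.2 TPM in the control, 12.5 TPM in the Trp53 KO, and the double KO had 13.7 TPM. Gene-level TPM includes reads outside a deleted exon. The paper reported efficient loss of the floxed Tut1 exon in Cre-treated Tut1f/f cells, which gene-level TPM cannot show. Within these TPM values, directions drawn from the Tut1 labels below rest on those labels alone.

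Promoter sequence is shown for the highest and the lowest member that had an entry in the RefSeq table used (build GRCm38.p6), as 250 bases ending just before the annotated start. Capitals mark the letters CCAAT (the CCAAT box), GGGCGG (the GC box) and TATAAA (the TATA box), searched on both strands. The Glul window lies at chr1:153899679-153899928 and the S100b window at chr10:76253586-76253835, both on the plus strand.
Glul: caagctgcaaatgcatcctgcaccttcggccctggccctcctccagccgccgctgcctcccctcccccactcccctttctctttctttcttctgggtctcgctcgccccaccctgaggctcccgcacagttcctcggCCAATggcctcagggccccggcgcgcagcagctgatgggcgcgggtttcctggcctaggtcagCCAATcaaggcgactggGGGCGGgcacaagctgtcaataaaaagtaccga
S100b: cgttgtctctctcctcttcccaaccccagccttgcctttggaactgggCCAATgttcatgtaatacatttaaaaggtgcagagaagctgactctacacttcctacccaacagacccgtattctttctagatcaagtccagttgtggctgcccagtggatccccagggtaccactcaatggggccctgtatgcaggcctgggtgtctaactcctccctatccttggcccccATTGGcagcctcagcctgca
The Glul window held 64.8% G and C and 15 CpG pairs, and the S100b window 53.6% and 2. Over all 32851 windows the medians were 52.4% and 6 CpG pairs. Both windows had 2 CCAAT boxes, beginning 113 and 50 bases before the start in Glul and 202 and 20 bases before it in S100b, and Glul also had a GC box. CCAAT occurred in 33.8% of all windows, GGGCGG in 32.7% and TATAAA in 12.4%. The 6 matched members had 7 windows, as Aldoc had 2, and none of them held TATAAA. Aldh1l1 also had 2 CCAAT boxes and a GC box, and one Aldoc window had a GC box. The Slc1a2 window, with 44.8% G and C and 1 CpG pair, held none of the 3 boxes. This window (chr2:102706188-102706437) and that of Aldh1l1 (chr6:90550543-90550792) lie at starts inside the gene spans given below. So does the Aldoc window at chr11:78323948-78324197. Gja1 had 2 copies of TGACG, found in 17.8% of windows, and the other Aldoc window had 2 copies of TTCNNNGAA, found in 7.02%. The full palindrome of nuclear factor I, found in 0.0365% of windows on either strand, was in none of the members' windows. These matches describe letters only.

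The 7 genes fell into a high and a low group that did not overlap in any library. Glul, Aldoc, Aldh1l1 and Gja1 lay above 40 TPM everywhere, and Slc1a2, S100b and Aqp4 below 10 TPM everywhere. TPM is scaled per transcript length, so levels of different genes can be set side by side, and the order of the 7 was the same in all 4 libraries. The ranges of Glul and Aldoc over the libraries overlapped, and those of all other neighbours in the order were separate.

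**Figure D1:**
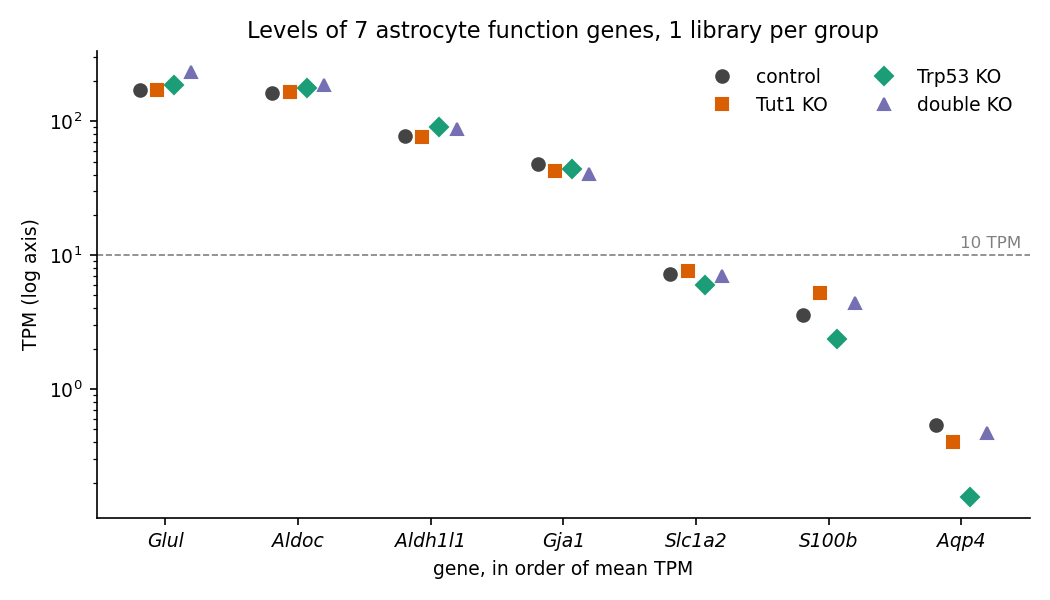
TPM of the 7 genes (log axis), from left to right in the control, Tut1 KO, Trp53 KO, then double KO, 1 point per library with no error bars. Glul and Aldoc lie highest, 4 genes lie above the dashed line at 10 TPM, and Aqp4 lies below 1 TPM in every library.

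Glul encodes glutamine synthetase, which joins ammonia to glutamate. Its level was 169.7 TPM in the control, 170.7 TPM in the Tut1 KO, 186.3 TPM in the Trp53 KO, and the double KO had 233 TPM. The control and Tut1 KO were close to each other, and the double KO stood highest. In each library at least 96.2% of the genes above 0 had a lower level than Glul. The gene lies at chr1:153899944-153909723 on the plus strand (GENCODE M21, GRCm38).

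The same strand carries Mir8114, a microRNA gene at chr1:153899926-153900036 that shares 93 nt with the first exon of Glul. Its mature sequence in RefSeq (GRCm38.p6), at chr1:153899989-153900009, is given here because its bases belong to both gene models. Capitals mark its seed, bases 2 to 8.
mmu-miR-8114: uCACCCAUcuccucuccgccu
Mir8114 had 47.3 TPM in the control, 44.7 TPM in the Tut1 KO, 41.5 TPM in the Trp53 KO, and the double KO had 0.0494 TPM. It was thus near 0 in the one library in which Glul was highest. How reads over the shared bases were divided between the 2 genes was not stated. Summed plainly, Glul and Mir8114 had 217, 215, 228 and 233 TPM in the same order of libraries. The double KO was then 1.07-fold the control, against 1.37-fold for Glul alone. With Mir8114 weighted by its length (111 nt against 2792 nt for the longest Glul transcript), the sums were 171.6, 172, 188 and 233 TPM, and the ratio was 1.36. Weighted by length, the sum left the ratio nearly as it was for Glul alone, whereas the plain sum adds TPM of transcripts of unlike length. Both sums kept the 2 libraries with the Trp53 label above the other 2. Teddm2, on the opposite strand over Glul exons, did not pass 0.296 TPM, and the processed pseudogenes Gm4949 and Gm8642, close copies of Glul, did not pass 0.402 TPM.

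**Figure D2:**
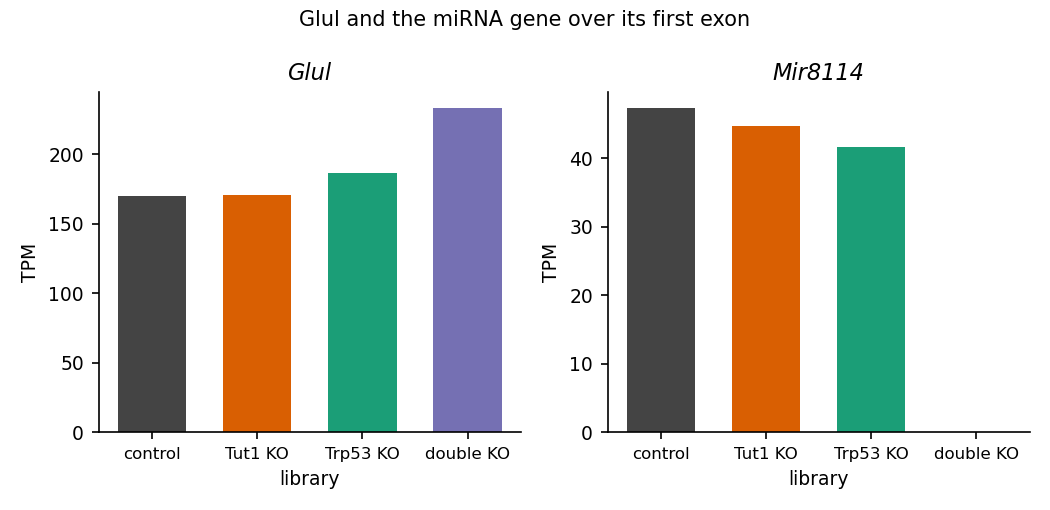
TPM of Glul (left) and of Mir8114 (right), whose exon overlaps the first exon of Glul on the same strand, with 1 bar per library and no error bars. Glul is highest in the double KO (233 TPM), where Mir8114 is at 0.0494 TPM.

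Aldoc encodes aldolase C, which splits fructose 1,6-bisphosphate in glycolysis. It was the steadiest member in ratio, at 163 TPM in the control, 166.6 TPM in the Tut1 KO, 176.6 TPM in the Trp53 KO, and the double KO had 186 TPM. The highest library was 1.14-fold the lowest. Aldoa, the aldolase of most tissues, had 1312 to 1871 TPM, 7.05- to 10.6-fold the level of Aldoc, and a second gene ID under the name Aldoa did not pass 5.10 TPM. The ratio was widest in the Trp53 KO, where Aldoa was highest, and narrowest in the double KO, where it was lowest. Its gene lies at chr11:78322968-78327781 on the plus strand and shares no exon with another gene.

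Aldh1l1 encodes 10-formyltetrahydrofolate dehydrogenase and is widely used to mark astrocytes. It had 77.9 TPM in the control, 76.1 TPM in the Tut1 KO, 90.8 TPM in the Trp53 KO, and the double KO had 86.7 TPM. The 2 libraries with the Trp53 label lay above the other 2 without overlap. Aldh1l2, its mitochondrial paralog, had 14.9, 9.38, 21.2 and 15.4 TPM in the same order, so that Aldh1l1 was 4.28- to 8.11-fold higher. Aldh1l1 (chr6:90486427-90600203, plus strand) shares exons with Gm45901, at 0 in every library, and on the opposite strand with Gm15756, which did not pass 0.311 TPM.

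Gja1 had 47.6 TPM in the control, 42.2 TPM in the Tut1 KO, 43.9 TPM in the Trp53 KO, and the double KO had 40.5 TPM. The control was highest and the double KO lowest, at a highest-to-lowest ratio of 1.18. Gja1 led the 20 connexin genes in every library and made up 47.2% to 51.2% of their summed TPM. Gjc1, which encodes connexin 45, was the second by mean level at 16.4 to 24.4 TPM, and 14 of the 20 stayed under 1 TPM throughout. Among those were Gjb6, described above, and Gjb2, which encodes connexin 26 and did not pass 0.222 TPM. Of the astrocyte connexins, Gja1 was thus present at a sizeable level and Gjb2 and Gjb6 were near 0. Gja1 lies at chr10:56377330-56402513 on the plus strand.

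Slc1a2 encodes GLT-1, the main glutamate transporter of the mature forebrain. It had 7.24 TPM in the control, 7.65 TPM in the Tut1 KO, 6.03 TPM in the Trp53 KO, and the double KO had 7.02 TPM. Its family member Slc1a3, which encodes GLAST, the glutamate transporter of radial glia, had 305, 290, 252 and 347 TPM in the same order. Slc1a3 was therefore 37.8- to 49.4-fold higher than Slc1a2. Slc1a2 was the fifth of 7 genes of solute carrier family 1 by mean level, with 1.59% to 2.08% of their summed TPM. Slc1a1, which encodes a transporter of neurons, was close to it at 7.43 to 9.65 TPM, and the neutral amino acid carriers Slc1a4 and Slc1a5 had 45.979 to 51.9 TPM and 15.1 to 32.9 TPM. Both Slc1a2 and Slc1a3 were lowest in the Trp53 KO. Slc1a2 lies at chr2:102658659-102790784 on the plus strand, and its antisense gene Gm13872 was at 0 in every library.

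S100b had 3.60 TPM in the control, 5.21 TPM in the Tut1 KO, 2.38 TPM in the Trp53 KO, and the double KO had 4.39 TPM. The 2 libraries with the Tut1 label lay above the other 2, all at levels under 10 TPM. It was the sixth of 18 S100 genes by mean level and gave at most 0.549% of their TPM. S100a10, which encodes a partner of annexin A2, had 504.6 to 579 TPM, 111- to 234-fold the level of S100b. S100a1, a close relative found in heart and brain, had 15.4, 29.3, 15.2 and 19.7 TPM in the order of libraries above, and S100a6 had 1.36, 2.63, 0.666 and 2.54 TPM. S100b lies at chr10:76253853-76261159 on the plus strand.

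Aqp4 was the lowest member, at 0.542 TPM in the control, 0.40 TPM in the Tut1 KO, 0.158 TPM in the Trp53 KO, and the double KO had 0.472 TPM. At such levels the depth of the libraries, which TPM does not keep, decides what can be seen, and no order of libraries was read from these values. None of the 11 aquaporin genes reached 10 TPM and 4 were at 0 in every library. Aqp11, an aquaporin of intracellular membranes, was the highest at 1.29 to 1.84 TPM, and Aqp1 and Aqp9 did not pass 0.75 and 0.447 TPM.

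**Figure D3:**
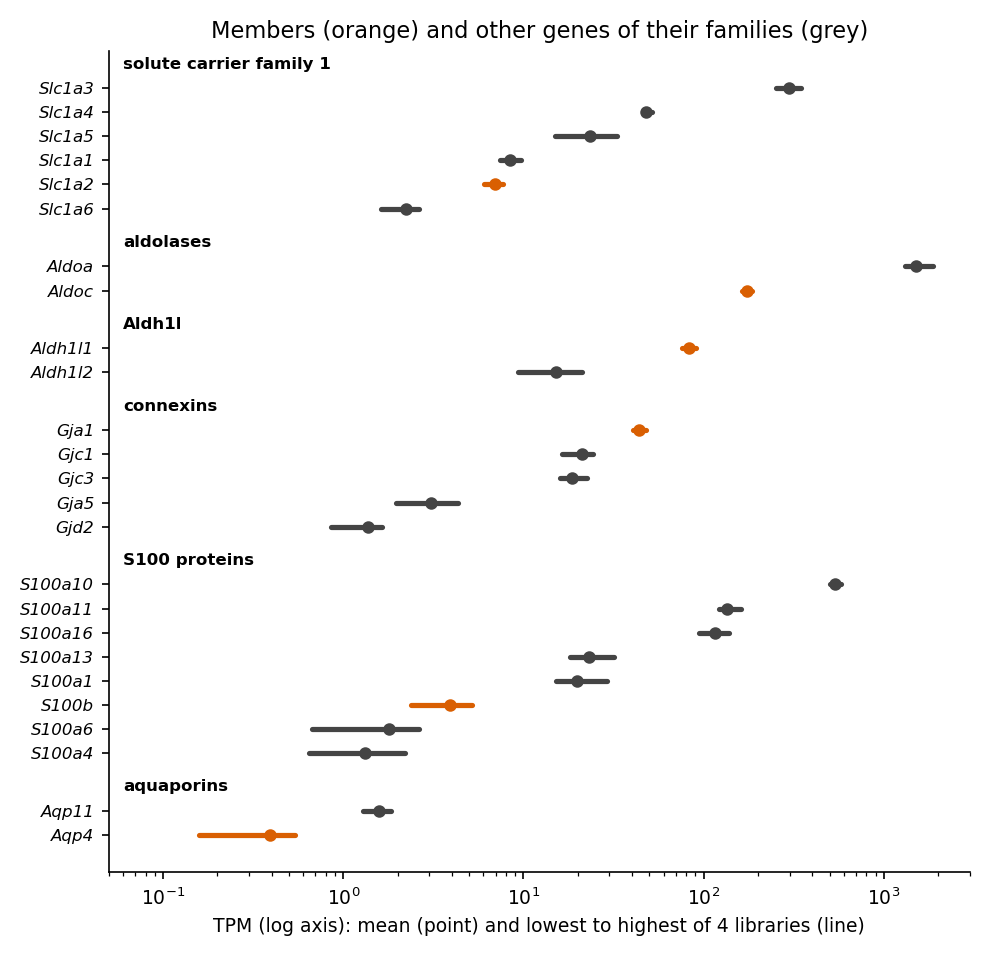
Mean TPM (points) and lowest to highest TPM over 4 libraries (lines) on a log axis, for the members (orange) and for genes of their families with a mean of at least 1 TPM (grey). Slc1a3 lies far above Slc1a2 and S100a10 far above S100b, whereas Gja1 leads the connexins.

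The comparisons asked whether the members moved with loss of Tut1, with Trp53 intact or deleted, and with loss of Trp53. All but double KO minus control were also between libraries that differ in the sex-linked genes Xist and Ddx3y, as given below. A difference was taken between 2 libraries on the log2(TPM + 1) scale, which shrinks the differences of low genes. Genes were counted as measured with 10 TPM in at least 1 of the 2 libraries, and called where they differed by 1 or more in either direction, a doubling of TPM + 1. Of the 7 members 4 were measured in each comparison, Slc1a2, S100b and Aqp4 being too low. None of the 4 was called in any of the 5 comparisons. Over all genes, 4.1% were called in Tut1 KO minus control, 3.21% in double KO minus Trp53 KO, 3.83% in Trp53 KO minus control, 3.31% in double KO minus control, with 3.9% for double KO minus Tut1 KO. At such shares, 0 of 4 does not set the members apart from other genes. With 1 library a group, a count of 0 leaves smaller differences undetermined.

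**Figure D4:**
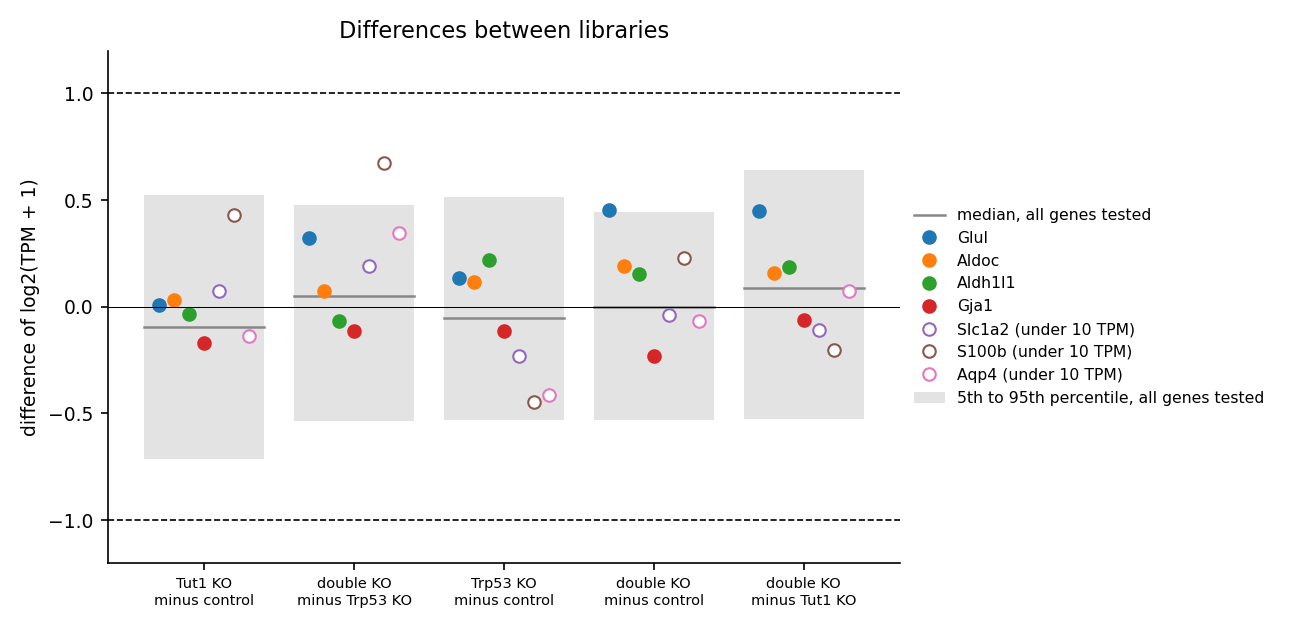
Differences of log2(TPM + 1) for the 7 members in 5 comparisons, with the 5th to 95th percentile (grey bars) and median (grey lines) of all genes measured. Filled points are members with at least 10 TPM, open points members below it, and dashed lines the threshold of 1, which no member reached.

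In Tut1 KO minus control, the differences were 0.01 for Glul, 0.03 for Aldoc, -0.03 for Aldh1l1 and -0.17 for Gja1. The median of the 4 was -0.01 and that of all 9032 genes was -0.09. For the first 3 of them, at least 92.7% of the genes measured differed by as much or more. Medians of protein-coding genes in this comparison went from 0.06 in the shortest of 4 equal classes of exon length to -0.25 in the longest. Gja1, with 10257 nt of exons, belonged among the longest, and the part of length in its value was not tested. Setting the median of all genes to 0, or equalising the distributions of the libraries, turned Aldh1l1 to a positive difference of at most 0.06.

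In double KO minus Trp53 KO, which shares no library with the first comparison, Glul differed by 0.32, Aldoc by 0.07, Aldh1l1 by -0.06 and Gja1 by -0.11. Gja1 was lower in the library with the Tut1 label in both comparisons. Its difference was exceeded or matched in size by 63.2% of genes in the first and by 62.9% in the second. For Glul in the second the share was 21.5%, and the sum with Mir8114 differed by 0.31 when weighted by length and by 0.03 when taken plainly.

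Trp53 KO minus control gave 0.13 for Glul, 0.11 for Aldoc, 0.22 for Aldh1l1 and -0.12 for Gja1, with a median of 0.12 against -0.05 for all genes. Double KO minus Tut1 KO, which shares no library with it, gave 0.45, 0.16, 0.19 and -0.06, with a median of 0.17 against 0.09 for all genes. Glul, Aldoc and Aldh1l1 had positive differences in both. Double KO minus control, which shares a library with each of these, gave 0.46 for Glul, 0.19 for Aldoc, 0.15 for Aldh1l1 and -0.23 for Gja1. The value of Glul was above the 95th percentile of all genes (0.44), and 11.2% of genes differed by as much in either direction. With Mir8114 added it was 0.44 when weighted by length and 0.10 when summed plainly.

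The labels were also read across all 4 libraries, a division drawn after the values were seen. Glul, Aldoc and Aldh1l1, that is 3 of the 4 members at 10 TPM, were higher in both libraries with the Trp53 label than in both without it. Over all 9314 genes at 10 TPM in some library, 14.2% were higher in this way and 13.4% were lower. The gaps between the groups were small, at 0.13 for Glul, 0.08 for Aldoc and 0.15 for Aldh1l1 on the log2(TPM + 1) scale. A gap at least as wide in the same direction was seen for 4.41%, 6.36% and 3.48% of genes. For the Tut1 label, 15.3% of genes were higher and 17.1% lower in both libraries with it. Gja1 was lower in both, with a gap of 0.05 that 11.6% of genes matched, and the other 3 overlapped. With the median of each library made equal, Gja1 overlapped too. Among the low members, Slc1a2 was lower with the Trp53 label by a gap of 0.04 and S100b higher with the Tut1 label by a gap of 0.23.

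The range over the 4 libraries was 0.46 for Glul, 0.25 for Aldh1l1, 0.23 for Gja1 and 0.19 for Aldoc on the log2(TPM + 1) scale, and the median range of the 9314 genes was 0.39. Aldoc, Gja1 and Aldh1l1 thus lay under that median and Glul above it. Aldoc had a wider range than 13.2% of genes, Gja1 than 20.2%, Aldh1l1 than 23.9% and Glul than 60.5%. Of the members under 10 TPM, S100b had a range of 0.88, Aqp4 of 0.41 and Slc1a2 of 0.30. None of the 4 at 10 TPM reached the range of 0.5 set for a search for genes of like profile, and none is named here.

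Beyond the members, 96 other genes in 7 lists of astrocyte functions were examined. In all 95 were found by name and 68 reached 10 TPM. Called genes numbered 3 of 68 in Tut1 KO minus control, 2 of 65 in double KO minus Trp53 KO, 3 of 67 in Trp53 KO minus control, 0 of 66 in double KO minus control, whereas double KO minus Tut1 KO had 3 of 66. These are 4.41%, 3.08%, 4.48%, 0% and 4.55% of the genes measured, to be read beside the shares over all genes given above. The called genes were Grm5, Nfix, Apoe and Sparcl1.

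Grm5, a metabotropic glutamate receptor of young astrocytes and neurons, had 4.83 TPM in the control, 26.7 TPM in the Tut1 KO, 32.2 TPM in the Trp53 KO, and the double KO had 3.19 TPM. Relative to the control it rose by 2.25 in the Tut1 KO, and by 2.51 in the Trp53 KO. In the double KO it fell by 2.99 relative to the Trp53 KO, and it fell by 2.72 relative to the Tut1 KO. Nfix, a transcription factor of the nuclear factor I family that acts in glial development, had 26.9, 4.17, 10.6 and 32.4 TPM in the same order. Against the control it fell by 2.43 in the Tut1 KO, and it fell by 1.26 in the Trp53 KO. In the double KO it rose by 1.52 relative to the Trp53 KO, and by 2.69 relative to the Tut1 KO. Both genes divided the libraries into control and double KO on one side and Tut1 KO and Trp53 KO on the other. Xist, transcribed from the inactive X chromosome of females, divided them in the same way (0.00969, 188, 204 and 0.00895 TPM), as did the Y-linked gene Ddx3y (24.4, 0, 0 and 25.7 TPM). A difference by sex or source of the cultures and one by genotype cannot be told apart, for these genes or for the members. Among the comparisons, only double KO minus control was between libraries alike in Xist and Ddx3y. Genes on the strand opposite to Nfix, Lyl1 and G430095P16Rik, did not pass 0.226 TPM.

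Apoe, the main lipid carrier made by astrocytes, had 37.6 TPM in the control, 96.4 TPM in the Tut1 KO, 20.6 TPM in the Trp53 KO, and the double KO had 32.5 TPM. It rose by 1.33 in Tut1 KO minus control, and it fell by 1.54 in double KO minus Tut1 KO. The Tut1 KO alone stood high. Sparcl1, which encodes the secreted synapse-inducing protein hevin, had 92.8, 139, 254 and 142 TPM and rose by 1.44 in Trp53 KO minus control. Sparcl1 was, like Glul, Aldoc and Aldh1l1, higher in both libraries with the Trp53 label, by the narrow step from 139 to 142 TPM.

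**Figure D5:**
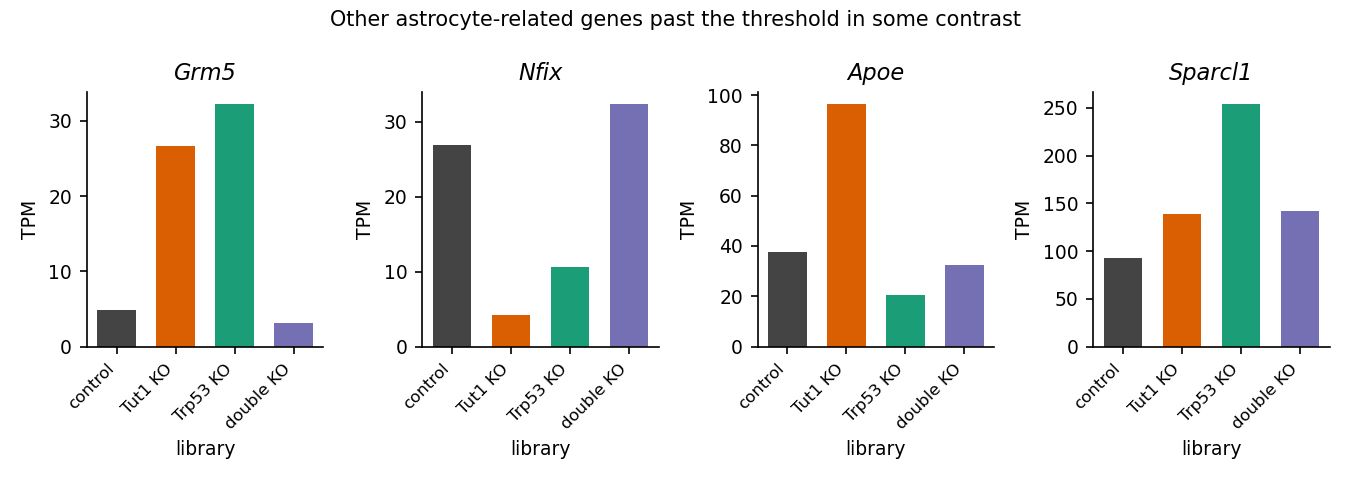
TPM of Grm5, Nfix, Apoe and Sparcl1 in each library, 1 bar per library with no error bars. Grm5 is high where Nfix is low, and Apoe and Sparcl1 each have 1 highest library, the Tut1 KO (96.4 TPM) and the Trp53 KO (254 TPM).

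The remaining genes of the lists were not called, and their levels show which of the listed genes the cultures transcribed. A level of 10 TPM does not by itself show an astrocyte function. For glutamate and glutamine handling, 10 of 13 genes reached 10 TPM, with Slc1a3 and the mitochondrial aspartate aminotransferase Got2 (178 to 185 TPM) highest. For water, potassium and endfeet it was 9 of 13, among them Atp1b2, which encodes a subunit of the sodium pump (121 to 132 TPM). Of 9 connexins, pannexins and partners 4 did, led by Tjp1, a scaffold at junctions, and Gjc1. Of the metabolic enzymes 9 of 11 did, led by Aldoa and Phgdh, the first enzyme of serine synthesis (344 to 402 TPM). Of 10 lipid carriers and secreted proteins 7 did, with the protease inhibitor Cst3 highest (267 to 369 TPM). Of 23 other astrocyte markers 15 did, led by the metallothionein Mt1 and S100a10. Of 16 regulators of astrocyte formation 14 did, among them Id3 (168 to 190 TPM) and Sox9 (113 to 149 TPM). Genes under 1 TPM in every library numbered 12 over all lists.

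List medians stayed within 0.43 of 0 in all comparisons and did not share a direction. In Tut1 KO minus control the median over all lists was -0.03, with 31 of 68 genes positive, against -0.09 for all genes. Glutamate and glutamine handling (-0.24, with 1 of 10 positive) and regulators of astrocyte formation (-0.11, with 4 of 14) lay below that value. Lipid carriers and secreted proteins (0.28, with 6 of 7 positive) and the other astrocyte markers (0.35, with 10 of 15) lay above it. The former lists were of long genes, with median exon lengths of 6907 and 6851 nt, and the latter of short ones, with 2937 and 2527 nt. The list of water, potassium and endfeet was also of long genes (6357 nt), yet its median was 0.12, with 5 of 9 positive. Connexins, pannexins and partners (5516.5 nt) had a median of -0.39, and metabolic enzymes (4442 nt) had 0.03. Protein-coding genes of the 4 length classes had medians of 0.06, -0.07, -0.15 and -0.25 in this comparison, from the shortest to the longest. The part of length in these list medians was not tested.

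In double KO minus Tut1 KO, glutamate and glutamine handling had a median of 0.28, with 8 of 9 positive, and the other astrocyte markers of -0.21, with 3 of 15, against 0.09 for all genes. The length classes there had medians from -0.04 in the shortest to 0.22 in the longest, and the part of length was again not tested. In comparisons without the Tut1 KO, the other astrocyte markers had medians of 0.18 in double KO minus Trp53 KO (10 of 14 positive, against 0.05 for all genes), -0.03 for the Trp53 KO against the control (6 of 14, against -0.05), then 0.21 for the double KO against the control (9 of 14, against -0.001). Lipid carriers and secreted proteins had 0.34, 0.11 and 0.31 in the same order, with 5, 4 and 5 of 7 positive.

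The 4 connexins, pannexins and partners had medians of -0.39, -0.43 and -0.39 in the Tut1 KO, Trp53 KO and double KO, each taken against the same control library, against -0.09, -0.05 and -0.001 for all genes. Tjp1 had 35.1 TPM in the control, 17.5 TPM in the Tut1 KO, 25.7 TPM in the Trp53 KO, and the double KO had 25.8 TPM. The difference of Tjp1 between the Tut1 KO and the control, -0.97, stayed just under the threshold, and with a pseudocount of 0.1 TPM it passed, which made 4 genes of the lists called in place of 3.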

How the data were processed

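The TPM table deposited by the authors held 55487 mouse genes in 4 libraries, 1 per group. The notes of the submitters name Trimmomatic, HISAT2, StringTie and mm10, with no version. The labels name a stranded mRNA kit, whereas the series text describes long reads, so the platform is unclear. TPM keeps no depth, which is unknown, and no counting error could be given. Groups came from the labels. Differences of log2(TPM + 1) were computed for genes with at least 10 TPM in 1 of the libraries compared and called at 1, with no test. Gene positions came from GENCODE M21 by gene ID (99.5% found), sequences from RefSeq. Named were the members, close paralogs, called genes of the astrocyte lists and the 2 highest genes of each list. Results for some of these are not reported here. Other family genes, Mir8114, overlapping genes, pseudogenes, Xist and Ddx3y were picked after values were seen. The members and lists were chosen with earlier results of these data known. The code was tested on simulated data. Python 3.11.15, pandas 2.3.3, numpy 2.4.6 and matplotlib 3.10.9 were used.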

Additional observations from a re-analysis of the deposited data

Results flagged for a closer look

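Grm5 and Nfix stood out because their differences went in opposite directions in the 2 Tut1 comparisons, which share no library. For Grm5, Tut1 KO minus control exceeded double KO minus Trp53 KO by 5.23 on the log2(TPM + 1) scale. For Nfix, the corresponding value was -3.95. With 1 library per group the difference between the comparisons was not tested, and both genes divide the libraries as Xist does.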

How the results depend on the processing

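No member at 10 TPM was called under any of the 9 alternatives (pseudocounts of 0.1 and 5 TPM, a minimum of 1 TPM, no minimum, a minimum of 10 TPM in both libraries, leaving out 140 genes of ribosomal proteins or the mitochondrial genome, centring on the median, quantile normalization, and a 1.5-fold threshold). Of 295 differences recomputed for single members 292 stayed on the same side of the threshold. The exceptions were genes under 10 TPM, namely Aqp4 with a pseudocount of 0.1 TPM (-1.32 for the Trp53 KO against the control, 1.15 in double KO minus Trp53 KO) and S100b at 1.5-fold (0.68 in double KO minus Trp53 KO). With 10 TPM required in both libraries, other astrocyte genes called numbered 1 of 62 in Tut1 KO minus control (1.81% of all genes), 1 of 61 in double KO minus Trp53 KO (1.4%), then 2 of 62 and 0 of 63 in the Trp53 KO and double KO against the control (1.55% and 1.63%). In double KO minus Tut1 KO it was 1 of 61 (1.67%). At the lower 1.5-fold threshold the counts, in that order, were 12 of 68, 8 of 65, 7 of 67, 4 of 66 and 6 of 66, against 12.1%, 7.89%, 8.42%, 7.76% and 10.7% of all genes. Medians set to 0 and quantile normalization changed the balance over all genes in Tut1 KO minus control from 134 higher and 236 lower to 161 and 204, and to 180 and 189. Added after the data were seen, 3 scalings were applied to the division by labels. The count of 3 members higher with the Trp53 label was the same in each, and with medians set equal the count lower with the Tut1 label was 0 instead of 1. The depth is unknown. Slc1a2 passed 10 TPM in the Tut1 KO (10.1 TPM) once ribosomal protein and mitochondrial genes were left out, and was not called. No paired analysis was possible because each group had 1 library, with no replicate numbers to match.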
